A study of Mus musculus with 32 samples.

Results

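Brain and heart, organs of the mouse that hold excitable cells, were compared by the amount of RNA polymerase II (Pol II) recovered over each gene. Pol II is the enzyme that transcribes protein-coding genes, and it was immunoprecipitated through the C-terminal domain (CTD) of its largest subunit. The comparison used 4 profiles of the normalized table: frozen brain and formalin-fixed, paraffin-embedded (FFPE) brain against frozen heart and FFPE heart. The labels give 2 Pol II libraries for each of them, so the comparison concerns 8 of the 32 libraries of the series, which also holds kidney, liver and input. Genes were kept when their log2 value reached 3 in at least 2 of the 4 profiles, which left 20438 of 27179 genes. In these profiles a log2 value of 3 corresponds to between 6 and 16 reads over a gene.

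Frozen organs were sampled as cores and crosslinked with 1% formaldehyde for 30 min. FFPE organs had been fixed in 10% formalin, and their chromatin was released by heating at 95 °C for 20 min. Genotype, strain, age, the number of animals and which of the 2 library kits named in the labels made which library are not given. It is also unknown whether each profile joins both libraries, so p-values measure only the spread between profiles. A profile mixes all cell types of the sampled tissue, and fewer cells of a type and less Pol II per cell cannot be told apart. Preservation was a block in the 4-profile fit, so each of its differences is the average of brain minus heart in frozen tissue and brain minus heart in FFPE tissue.

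Neurons and cardiomyocytes both carry electrical signals with voltage-gated sodium, calcium and potassium channels. They use them for different ends. Neurons release transmitter from synaptic vesicles onto ligand-gated receptors, whereas cardiomyocytes couple each action potential to calcium release from the sarcoplasmic reticulum and contraction of the sarcomere. The heart works on fatty acids and oxygen from a dense capillary bed, while brain vessels form a tight barrier and supply mainly glucose. Immediate early and heat shock genes can be transcribed within minutes of a stimulus in most tissues. Pol II over them is given here as a level, and whether it marks a response was not tested.

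Reads in genes numbered 1720461 in frozen and 1818524 in FFPE brain, against 1583260 in frozen and 923888 in FFPE heart. Mitochondrial genes, which Pol II does not transcribe, took 7.73% of the reads in both brain profiles, against 11.99% in frozen heart and 25.6% in FFPE heart. The FFPE heart profile thus stood apart by depth and by this share, and its median gene had 16 reads, against 29 to 38 in the other profiles. Errors below are standard errors (SE) of the log2 difference from limma, with 2 brain and 2 heart profiles. With 1 residual degree of freedom limma took the spread of a gene wholly from the trend over all genes, so the errors reflect typical genes of the same level. The fit of all 8 profiles, with kidney and liver adding to the estimate of the spread, is therefore given beside the counts.

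Snap25, the membrane fusion protein of synaptic vesicles, stood at 6.83 in frozen and 6.88 in FFPE brain, against 4.04 and 4.54 in frozen and FFPE heart (log2 of depth-scaled reads). Myh6, the main myosin heavy chain of the adult mouse heart, stood at 5.41 and 5.90 in brain, against 11.90 and 10.77 in heart. For Kdr, the endothelial receptor for vascular endothelial growth factor, the values were 5.42 and 5.29 in brain and 8.30 and 7.89 in heart. Zfp36, which encodes an RNA-binding protein that hastens the decay of cytokine messages and is itself an immediate early gene, stood at 4.45 and 3.91 in brain and at 7.47 and 7.49 in heart. The profiles of the 2 organs did not overlap for any of these 4 genes. The differences, brain minus heart, were 2.56 ± 0.30 for Snap25, -5.68 ± 0.25 for Myh6, -2.73 ± 0.25 for Kdr and -3.30 ± 0.29 for Zfp36, and each kept its call under every alternative. Myh6 overlaps Cmtm5 and Mir208a in the annotation, and reads of overlapping genes cannot be separated because the strand of counting is not given. Levels are scaled by depth but not by gene length, and input was not subtracted, so they do not rank genes within an organ. A level in an organ need not mean transcription of the gene there. Myh6 stood at 5.61 and 4.98 in kidney and at 4.94 and 5.54 in liver, near its brain values. The part of background in such levels was not tested.

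**Figure D1:**
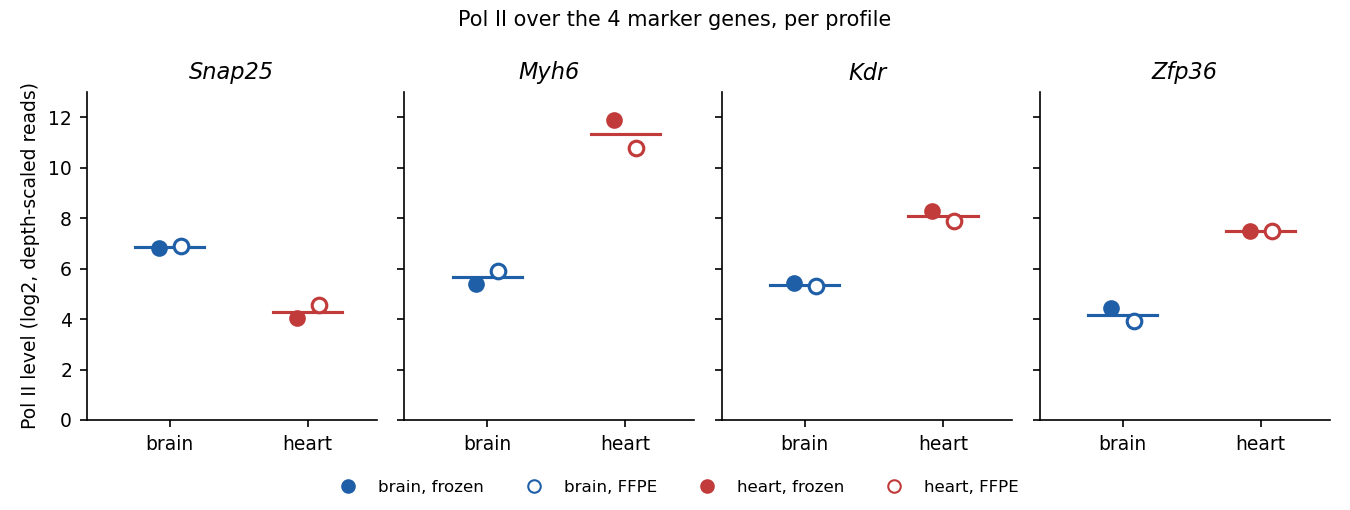
Pol II level (log2, depth-scaled reads) of Snap25, Myh6, Kdr and Zfp36 in the 2 brain profiles (left, blue) and the 2 heart profiles (right, red). Filled points are frozen, open points FFPE tissue, and the bar is the mean of the organ; Snap25 lies above heart in both brain profiles, and the other 3 genes lie below it.

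Over all genes tested, limma called 1335 genes higher in brain (6.53%) and 1888 lower in brain (9.24%) at a Benjamini-Hochberg adjusted p below 0.05. In the fit of all 8 profiles 787 were higher (3.85%) and 1128 lower (5.52%), of which 771 and 1126 were also called with 4 profiles. Both brain profiles lay above both heart profiles for 23.8% of all genes and below them for 27.9%. Brain and heart did not overlap for 1319 of the called higher and 1851 of the called lower genes. The sign was the same in frozen and FFPE tissue for 1329 and 1884 of them, and for 65.5% of all tested genes. With 1 profile left out, between 132 (frozen brain) and 373 (frozen heart) genes were higher and between 313 (frozen brain) and 459 (FFPE brain) lower. Without FFPE heart the counts were 307 and 450. The balance depended on the scaling: quantile normalization gave 1572 and 1632, leaving out mitochondrial genes and scaling factors gave 1620 and 1508, and scaling to silent olfactory and vomeronasal receptor genes gave 675 and 3458. The median difference of all genes was -0.03, and -0.37 when scaled to the silent receptors. Genes named below as higher or lower kept the call in the 8-profile fit and without any one of the 4 profiles, unless an exception is given.

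**Figure D2:**
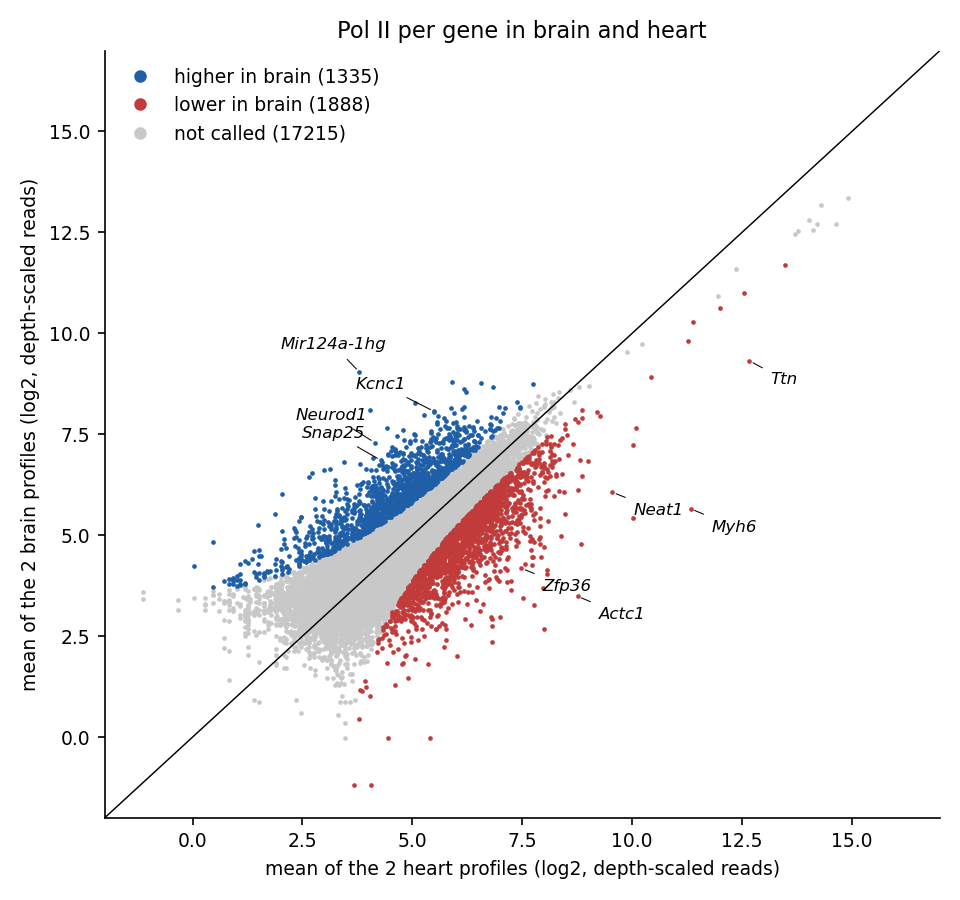
Mean Pol II level of each of the 20438 genes in the 2 brain profiles (vertical axis) against the 2 heart profiles (horizontal axis), both in log2 of depth-scaled reads, with equal levels on the line. The 1335 genes called higher and the 1888 called lower in brain flank a band of genes not called, and the genes above a log2 level of 10 in brain are mitochondrial except Rn45s.

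Genes of synaptic vesicles and transmitter release were higher in brain in 17 of 20 members, with 0 lower, and the list's median difference was 1.68. Besides Snap25 they included Cplx2 (2.47 ± 0.27), a complexin that clamps vesicle fusion, and the active zone scaffolds Bsn (2.20 ± 0.24) and Pclo (2.01 ± 0.24), both named after their values were seen. Bsn stood at 8.57 and 8.95 in brain and at 6.26 and 6.86 in heart. Slc17a7, which loads vesicles with glutamate, stood at 7.14 and 6.81 in brain and at 4.21 and 4.69 in heart (2.53 ± 0.29), but its call was lost without frozen brain (adjusted p = 0.11) and without frozen heart (adjusted p = 0.052). Not called was the GABA transporter of vesicles, Slc32a1, at 4.99 and 5.06 in brain and 3.92 and 4.82 in heart. The vesicle proteins Vamp2 and Rab3a, which other secreting cells also use, differed by 0.09 ± 0.30 and 0.30 ± 0.28. In the 8-profile fit 14 members were called, and with 1 profile left out between 4 (frozen brain) and 10 (FFPE brain).

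Receptors for glutamate and GABA, the main excitatory and inhibitory transmitters, were higher in 16 of 19 members with a median difference of 1.42. Gria2, the AMPA receptor subunit that limits calcium entry, stood at 7.29 and 7.32 in brain and at 5.19 and 5.59 in heart (1.91 ± 0.26; named after its values were seen). Grin1, the subunit shared by all NMDA receptors, differed by 2.26 ± 0.28 and lost its call without frozen brain (adjusted p = 0.083); it overlaps Lrrc26 and Grin1os. Gabra6, a GABA receptor subunit of cerebellar granule cells, was among the 10 ranked genes with the largest differences in favour of brain. It stood at 6.77 and 6.10 in brain and 3.63 and 1.65 in heart (3.79 ± 0.41). Gabbr2, Gria3 and Grm3 were not called, although both brain profiles of Gria3 and Grm3 lay above both heart profiles. The 8-profile fit called 12 members, and with 1 profile left out between 1 (frozen brain) and 6 (FFPE heart) were called.

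The neuronal cytoskeleton list was higher in 14 of 18 members and the list of very long synaptic and adhesion genes in 14 of 16, with 0 lower in either and medians of 1.62 and 1.57. Map2, a microtubule protein of dendrites, stood at 6.60 and 6.70 in brain and at 4.04 and 3.85 in heart (2.70 ± 0.32). The presynaptic neurexin Nrxn3 was higher by 2.42 ± 0.26, as was the postsynaptic scaffold Dlg2 (1.94 ± 0.27). The tubulin Tubb4a differed by 2.79 ± 0.31 and lost its call without frozen brain (adjusted p = 0.082). Nptx1, a secreted pentraxin that gathers AMPA receptors, was at 8.36 and 7.86 in brain and at 4.21 and 3.85 in heart (4.08 ± 0.27). Each of these 2 lists had 12 members called in the 8-profile fit. With 1 profile left out, between 4 (frozen brain, or FFPE heart) and 6 cytoskeletal and between 4 (frozen brain, or FFPE brain) and 7 very long genes were called.

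Of 14 neural transcription factors 7 were higher, in the 8-profile fit too. Neurod1, a bHLH factor of granule and other neurons, stood at 7.51 and 7.08 in brain and at 4.21 and 4.08 in heart (3.15 ± 0.29). Zic1, a zinc finger factor prominent in the cerebellum, differed by 2.39 ± 0.27 and overlaps Zic4, and Neurod2 differed by 2.25 ± 0.30. Npas4, a factor induced by neuronal activity, was at 7.13 and 6.90 in brain and at 4.61 and 4.94 in heart (2.24 ± 0.28) and lost its call without frozen brain (adjusted p = 0.12). Tbr1, Mef2c and Pou3f2 were not called and their profiles overlapped: Mef2c, which both neurons and heart use, stood at 5.76 and 6.57 in brain and at 6.45 and 6.07 in heart. Between 3 (frozen brain) and 5 (FFPE heart) members were called with 1 profile left out.

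Fewer of the glial genes were called. In the oligodendrocyte list 4 of 11 were higher (2 in the 8-profile fit), led by the myelin genes Mobp (2.14 ± 0.30) and Mbp (1.99 ± 0.27). Both brain profiles lay above both heart profiles for 10 of the 11, against 23.8% of all genes, and the list's median was 1.04. Mbp stood at 7.24 and 7.15 in brain and at 5.58 and 4.82 in heart. Of 11 astrocyte genes 3 were higher and 1 lower, and the list's median of 0.05 turned to -0.30 when scaled to the silent receptors. The higher ones were the glutamate transporter Slc1a2 (1.36 ± 0.25), the aldolase Aldoc (2.10 ± 0.52) and the connexin Gjb6 (2.36 ± 0.70), and each lost its call without frozen brain (adjusted p = 0.087, 0.70 and 0.28) and without FFPE heart (0.066, 0.11 and 0.052). The lower one was Gja1, which encodes connexin 43, the gap junction protein of astrocytes and also of ventricular myocytes. Gja1 stood at 4.99 and 4.72 in brain, against 8.05 and 7.32 in heart (-2.83 ± 0.26). Gfap, Slc1a3 and Fgfr3 were not called. None of the 10 microglia and macrophage genes was called by limma, in this fit or the 8-profile fit. Their median was -0.24, and -0.59 with 1 member lower when scaled to the silent receptors. Both brain profiles lay above both heart profiles for 2 members and below them for 2, against 23.8% and 27.9% of all genes. Csf1r stood at 5.81 and 5.93 in brain and at 5.74 and 5.84 in heart.

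MicroRNA genes and their host transcripts stood at both ends of the comparison, and 4 mature products are shown so that their seeds can be compared. This list was drawn up after the values were seen. Mir124a-1hg, host of a neuronal microRNA, stood at 9.22 and 8.86 in brain against 4.35 and 3.23 in heart (5.25 ± 0.26). That was the largest difference in favour of brain among called, non-mitochondrial genes with a symbol and no overlap of profiles. Mir9-3hg, host of the neural miR-9, stood at 6.59 and 6.67 in brain and at 3.47 and 2.79 in heart (3.50 ± 0.37). On the other side, Mir1a-1hg, host of muscle microRNAs, stood at 3.36 and 3.19 in brain and at 8.64 and 6.89 in heart (-4.49 ± 0.31). Mir22hg was lower in brain by 1.61 on the log2 scale (SE 0.28). Mir208a, within Myh6, had 1 and 2 reads in brain against 95 and 22 in heart, and Mir208b, within Myh7, had 1 and 2 against 38 and 14. Reads over these short genes cannot be separated from those of their myosin hosts, and both calls were lost with any one profile left out (adjusted p from 0.12 to 0.30 for Mir208a and from 0.27 to 0.43 for Mir208b). Mature sequences from RefSeq (GRCm38.p6) follow with the seed, bases 2 to 8, in capitals. The sign gives the strand.
mmu-miR-9-5p, chr7:79505279-79505301 (+): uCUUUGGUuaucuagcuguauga
mmu-miR-208a-3p, chr14:54949072-54949093 (-): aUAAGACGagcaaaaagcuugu
mmu-miR-208b-3p, chr14:54975710-54975731 (-): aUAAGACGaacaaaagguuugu
mmu-miR-22-3p, chr11:75463772-75463793 (+): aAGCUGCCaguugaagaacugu
miR-208a-3p and miR-208b-3p share their seed and differ at 3 of 22 bases, G10A, A16G and C18U, counted from 1 at the 5′ end with the base of miR-208a-3p first.

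In the sarcomere list 19 of 20 members were lower in brain, with a median difference of -3.23, and the 8-profile fit called the same number. Actc1, the cardiac actin, stood at 3.57 and 3.41 in brain, against 9.66 and 7.86 in heart (-5.27 ± 0.27). The thin filament genes Tnnt2 (-4.27 ± 0.29), Tnni3 (-4.06 ± 0.38) and Tnnc1 (-3.99 ± 0.50) encode the troponin complex that makes contraction depend on calcium. Ttn, the giant spring protein, stood at 9.26 and 9.38 in brain and at 13.01 and 12.32 in heart (-3.35 ± 0.37). These levels are not scaled by gene length, so that of Ttn in brain cannot be set beside those of other genes. Myh7, the slow myosin heavy chain, stood at 5.49 and 5.38 in brain and at 10.69 and 9.36 in heart (-4.59 ± 0.24) and overlaps Mir208b and Mhrt. Tnni3, Tnnc1 and Ttn were named after their values were seen. Nebl, a Z-disc protein of the nebulin family, was the member not called, at 5.30 and 4.69 in brain and 5.34 and 4.08 in heart. With 1 profile left out between 14 (frozen heart) and 18 (frozen brain, or FFPE heart) members were called.

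The CArG box, the binding sequence of serum response factor, was searched on both strands in promoters of 300 bases (250 before to 50 after the start; RefSeq, GRCm38.p6). It was found in 5 of 18 sarcomere genes with a promoter in the table, Actc1, Ldb3, Myl3, Myom1 and Nebl, and in 1.66% of all 15271 tested genes with one. It was in 1.21% of the genes higher and 2.75% of those lower in brain. The MEF2 site was in 3 of the 18 and in 2.55% of all. Other motifs were searched too. The TATA box (TATAAA) and the AP-1 site (TGANTCA) were each in 3 of the 18, against 11.25% and 7.50% of all. The GATA site (AGATAA) was in 4 and the E-box (CAGCTG) in 5, against 9.36% and 18.91%. The heat shock element core was in 1 and the cAMP response element (TGACGTCA) in 0. These are matches of letters, not sites shown to be bound. The 250 bases before the start of Actc1 are shown because Actc1 had the largest difference of a sarcomere gene that overlaps no other gene, with the CArG box in capitals, 47 bases before the start.
Actc1, chr2:114052876-114053125 (-): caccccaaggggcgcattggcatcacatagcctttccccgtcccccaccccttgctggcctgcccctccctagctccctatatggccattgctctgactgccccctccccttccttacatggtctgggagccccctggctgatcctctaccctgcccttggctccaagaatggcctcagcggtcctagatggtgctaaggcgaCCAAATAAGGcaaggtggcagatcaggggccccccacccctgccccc

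Genes of cardiac calcium handling were lower in brain in 8 of 10 members (7 in the 8-profile fit), with a median of -1.71. Pln, which restrains the calcium pump of the reticulum, stood at 4.95 and 4.61 in brain and at 9.66 and 8.04 in heart (-4.07 ± 0.25; it overlaps Cep85l). The pump itself, Atp2a2, was at 7.64 and 7.68 in brain and at 10.48 and 9.68 in heart (-2.42 ± 0.25), and Jph2, which holds the reticulum close to the cell membrane, differed by -3.45 ± 0.28. Ryr2, the calcium release channel, stood at 7.89 and 8.02 in brain and at 9.42 and 9.12 in heart (-1.31 ± 0.25), a call that was lost without frozen brain, frozen heart or FFPE heart (adjusted p = 0.19, 0.077 and 0.067). Against kidney and liver, Ryr2 was called higher in brain (1.40) as well as in heart (2.72), values that share the kidney and liver profiles. The L-type calcium channel Cacna1c was likewise called above kidney and liver in brain (1.07) and heart (1.63), and its brain minus heart difference of -0.56 ± 0.24 was not called. Between 3 (frozen heart) and 6 (FFPE brain) members were called with 1 profile left out.

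Cardiac transcription factors were lower in 8 of 10 members (6 in the 8-profile fit, 4 to 5 with 1 profile left out). Gata6 stood at 3.96 and 4.32 in brain and at 7.38 and 6.92 in heart (-3.01 ± 0.30), and Hand2, a bHLH factor of the ventricles, differed by -2.83 ± 0.32. Gata4 (-2.35 ± 0.31) and Tbx20 (-2.15 ± 0.26) were lower too, named after their values were seen. Hand1 and Mef2a were not called. Of the natriuretic and atrial genes, Nppb, a peptide hormone of stretched myocardium, stood at 2.32 and 2.37 in brain and at 7.39 and 6.22 in heart (-4.46 ± 0.40). Nppa, its atrial relative, was not called: it stood at 4.45 and 3.91 in brain, 3.38 in frozen heart and 6.47 in FFPE heart, so that brain lay above heart in frozen and below it in FFPE tissue. Myl4 showed the same contrast within heart, at 3.71 in frozen and 5.56 in FFPE tissue. So did Myl7 and Sln, list members below the filter, with 6 and 0 reads in frozen heart and 26 and 9 in FFPE heart. Nppb went the other way. Whether the 2 heart profiles hold the same part of the heart was not tested.

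Genes of fatty acid use and oxygen supply were lower in brain in 10 of 17 members (8 in the 8-profile fit), with a median of -1.24. Lpl, the lipase that frees fatty acids at the vessel wall, stood at 3.86 and 4.42 in brain and at 8.65 and 7.46 in heart (-3.92 ± 0.27). The fatty acid transporter Cd36 was at 4.73 and 4.67 in brain and at 8.16 and 7.82 in heart (-3.29 ± 0.26). Myoglobin, Mb, differed by -3.61 ± 0.31 and overlaps Apol6, and Pdk4, which turns pyruvate away from oxidation, by -2.03 ± 0.29. The oxidation enzymes Acadvl, Hadha and Etfdh were not called, at -0.13 ± 0.27, -0.52 ± 0.27 and -0.73 ± 0.29. Between 5 (frozen brain, or frozen heart) and 7 (FFPE heart) members were called with 1 profile left out.

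**Figure D3:**
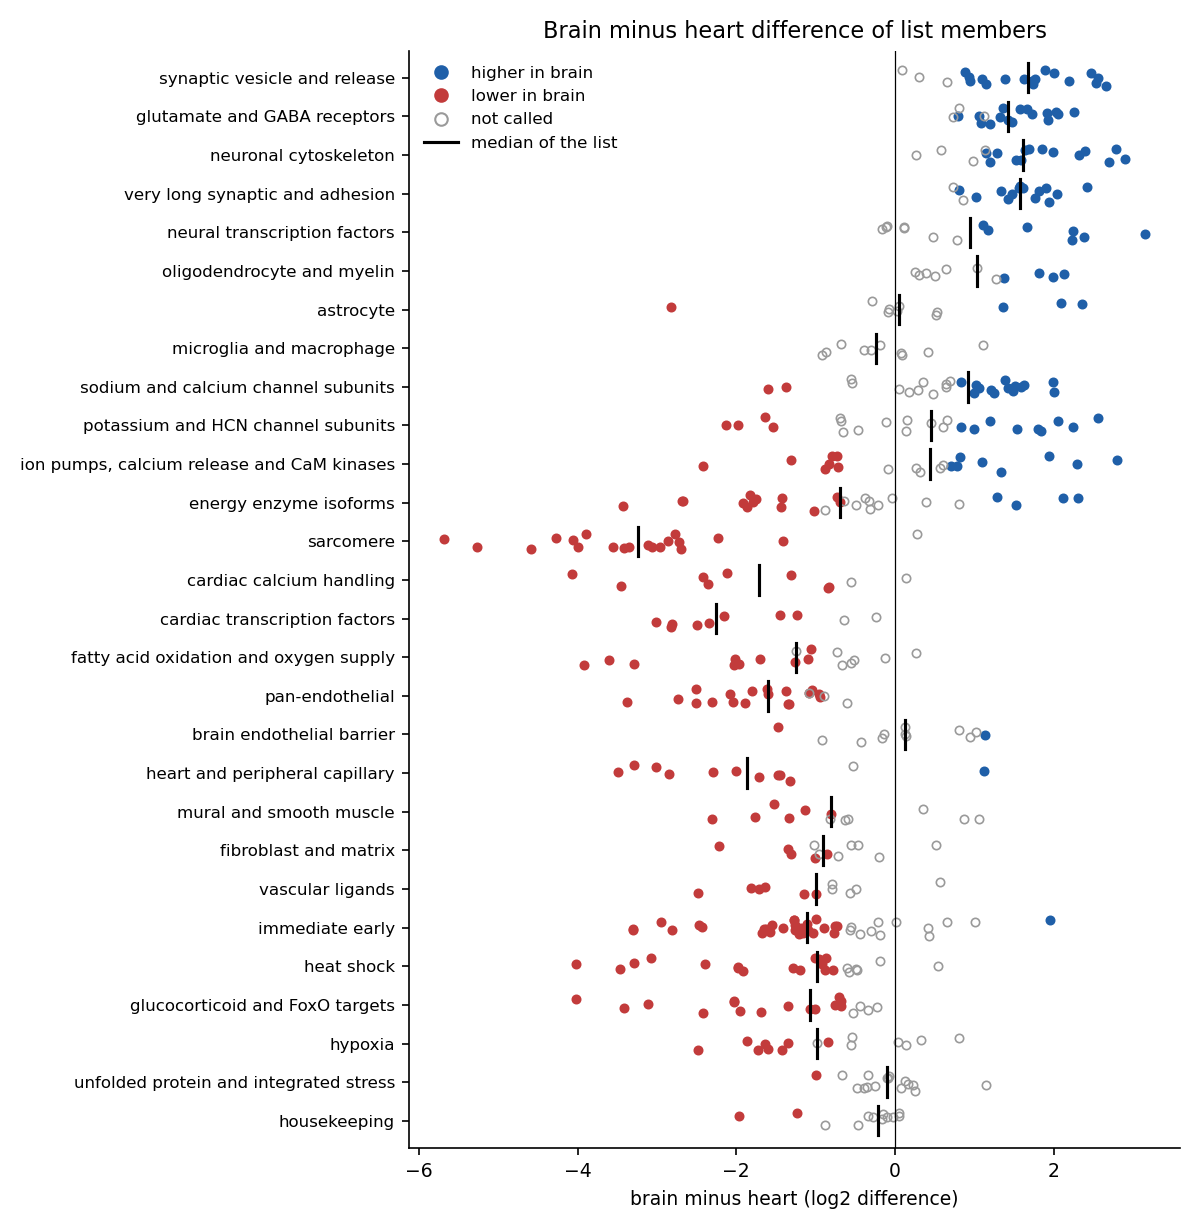
Brain minus heart difference (log2) of each member of 28 gene lists, 1 point per gene, with the median of each list as a black bar. Blue points were called higher and red points lower in brain; synaptic and receptor lists lie to the right of 0, sarcomere, endothelial and stress lists to the left, and channel, pump and enzyme lists on both sides.

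Channels shared by excitable cells split by family member. Among 26 sodium and calcium channel subunits 14 were higher and 2 lower in brain (10 and 2 in the 8-profile fit, 9 and 4 when scaled to silent receptors). Cacna1e, the R-type calcium channel of neurons, stood at 7.51 and 7.75 in brain and at 5.64 and 5.63 in heart (1.99 ± 0.25). The lower members included Cacnb2, the main beta subunit of the cardiac calcium channel, at 4.49 and 6.04 in brain and at 6.64 and 6.62 in heart (-1.37 ± 0.28). Scn2a, a sodium channel of axons, stood at 7.44 and 7.39 in brain and at 5.94 and 5.63 in heart (1.63 ± 0.25). Scn2a lost its call without FFPE brain (adjusted p = 0.12) or frozen heart (0.055), and Cacnb2 without frozen brain (0.76), frozen heart (0.30) or FFPE heart (0.16). With 1 profile left out between 2 (frozen brain) and 6 (FFPE heart) members were higher and 0 or 1 lower.

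Of 23 potassium and HCN channel subunits 9 were higher and 4 lower, against 6 and 3 in the 8-profile fit and 6 and 7 when scaled to silent receptors. Kcnc1, a fast channel that lets neurons fire at high rates, stood at 8.09 and 8.04 in brain and at 5.48 and 5.52 in heart (2.57 ± 0.25). The axonal channel Kcna1 was higher as well (2.06 ± 0.25). The lower members included Kcne1, the partner of the slow repolarizing channel of heart (-2.13 ± 0.31), and Kcna5 (-1.97 ± 0.32), a voltage-gated channel of the shaker-related subfamily. Kcne1 lost its call without frozen brain or frozen heart (adjusted p = 0.067 and 0.13), and Kcna5 without frozen brain, frozen heart or FFPE heart (adjusted p = 0.36, 0.18 and 0.14). The inward rectifier Kcnj2 and the repolarizing channel Kcnh2 were not called. Both were called above kidney and liver in heart, Kcnj2 by 1.12 and Kcnh2 by 1.41, and stood at 0.66 and 0.76 above them in brain without a call. Between 4 (FFPE brain) and 5 members were higher and between 0 (frozen heart) and 2 (FFPE brain) lower with 1 profile left out.

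Pumps, exchangers, calcium release channels and calmodulin-dependent kinases had 8 of 20 members higher and 7 lower, against 4 and 3 in the 8-profile fit, 4 and 7 when scaled to silent receptors and 10 and 6 with quantile normalization. Atp2b2, a plasma membrane calcium pump of neurons, was at 7.09 and 7.62 in brain and at 5.24 and 4.88 in heart (2.29 ± 0.27). The sodium-calcium exchangers stood on opposite sides, Slc8a2 at 1.94 ± 0.29 and the cardiac Slc8a1 at -0.83 ± 0.24. So did the CaM kinase II genes, with Camk2b at 1.34 ± 0.26 and Camk2d, the main cardiac form, at -0.72 ± 0.25. The calls of Slc8a2, Slc8a1 and Camk2d were lost with any one profile left out, and that of Camk2b with any but frozen heart. Their highest adjusted p, each without frozen brain, were 0.16 for Slc8a2, 0.40 for Slc8a1, 0.28 for Camk2b and 0.49 for Camk2d, and Camk2d had an adjusted p of 0.11 in the 8-profile fit. With 1 profile left out 2 to 3 members were higher and 1 to 2 lower.

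Isoforms of energy enzymes were higher in brain in 4 of 27 members and lower in 13, against 4 and 9 in the 8-profile fit. For creatine kinase, which buffers ATP, the brain-type Ckb was higher (1.29 ± 0.26) and the muscle-type Ckm lower (-2.67 ± 0.49; it overlaps A930016O22Rik). The mitochondrial forms divided likewise, with Ckmt1 at 2.12 ± 0.47 and Ckmt2 at -2.68 ± 0.36. Ckmt2 stood at 3.63 and 3.53 in brain and at 6.85 and 5.67 in heart. Eno2, the neuronal enolase, was at 6.74 and 6.58 in brain and at 4.15 and 4.54 in heart (2.31 ± 0.31), whereas Eno1, present in most tissues, differed by -0.21 ± 0.27. The glucose transporters Slc2a3, of neurons, and Slc2a4, the insulin-responsive one of muscle, differed by 1.53 ± 0.29 and -1.92 ± 0.31. Hk2, a hexokinase of muscle, was lower by 1.86 ± 0.27 on the log2 scale and was the 1 member called with each profile left out. The highest adjusted p with 1 profile left out was 0.32 for Ckb, 0.54 for Ckm, 0.29 for Ckmt1, 0.11 for Ckmt2, 0.062 for Eno2, 0.19 for Slc2a3 and 0.16 for Slc2a4. Between 0 (frozen brain) and 2 (frozen heart) members were higher and between 2 (FFPE brain, or frozen heart) and 6 (FFPE heart) lower.

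**Figure D4:**
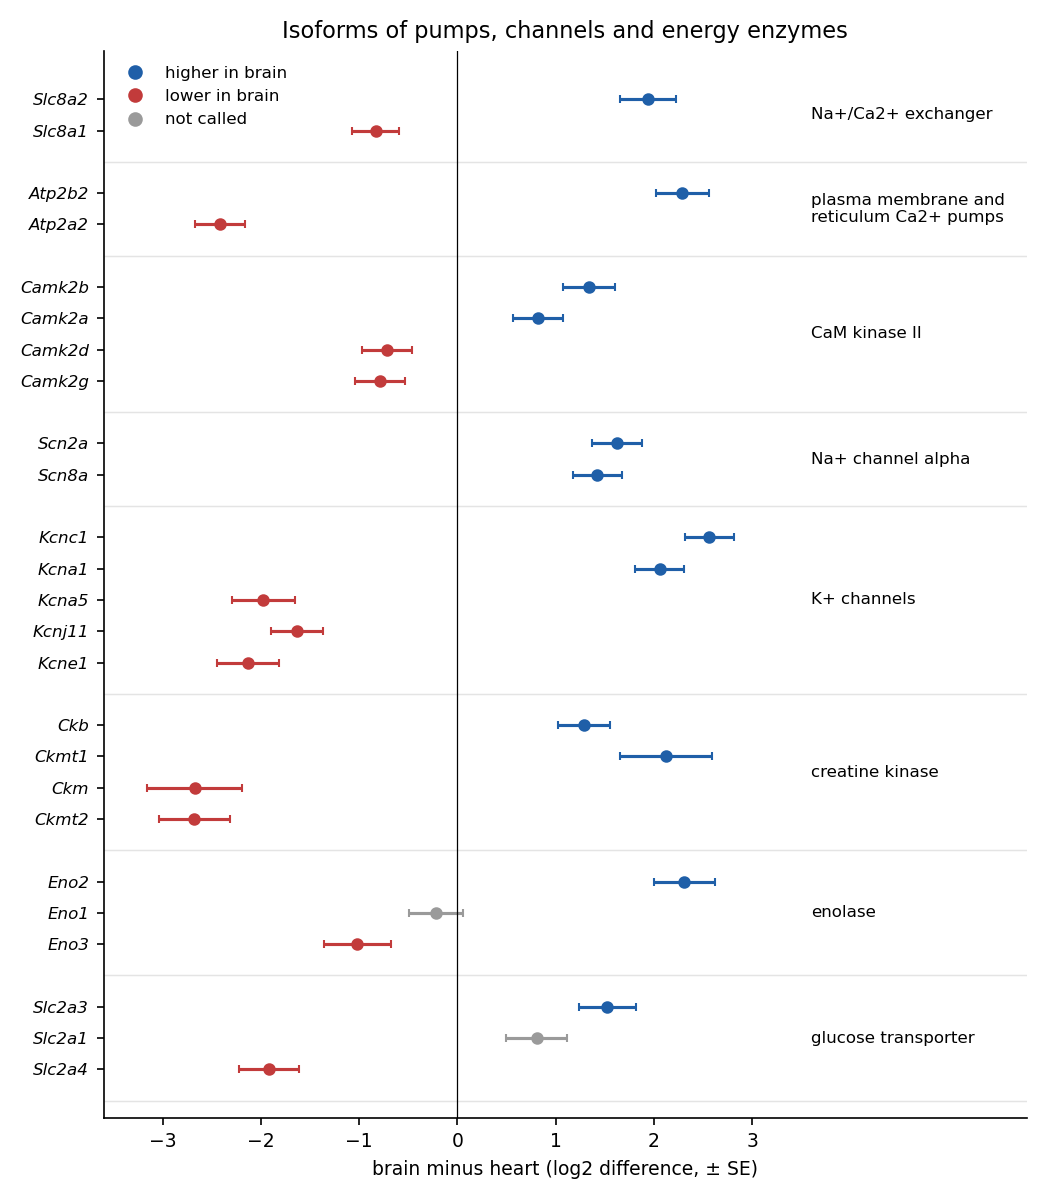
Brain minus heart difference (log2, ± SE, 2 brain and 2 heart profiles) of exchangers, pumps, kinases, channels, energy enzymes and glucose transporters, grouped by kind. The calcium pump and potassium channel groups hold members of different families. Blue genes were called higher and red genes lower in brain. Atp2b2, Kcnc1, Kcna1, Ckmt1 and Eno2 lie above 2, and Ckm, Ckmt2, Atp2a2 and Kcne1 below -2.

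Endothelial genes were lower in brain. In the pan-endothelial list 18 of 21 members were called, 15 in the 8-profile fit, and the median was -1.60. Both brain profiles lay below both heart profiles for all 21 members, against 27.9% of all genes. Egfl7, a secreted factor of vessel walls and host of an endothelial microRNA, stood at 3.96 and 3.76 in brain and at 7.41 and 7.06 in heart (-3.38 ± 0.30; it overlaps Mir126a). Sox18, an endothelial transcription factor, was at 4.14 and 3.41 in brain and at 6.34 and 6.22 in heart (-2.51 ± 0.35). Eng (-2.30 ± 0.27), a TGF-beta co-receptor, and the junction protein Esam (-2.07 ± 0.30) were lower too, named after their values were seen. Vwf, Emcn and Erg were not called, at -0.60 ± 0.27, -0.89 ± 0.41 and -1.08 ± 0.44. The summed reads of the list were 664 and 659 per 1000000 in brain, against 1931 and 1539 in heart. These are shares of all reads in genes, mitochondrial reads included. Between 7 (frozen brain, or frozen heart) and 11 (FFPE heart) members were called with 1 profile left out.

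Set against kidney and liver, whose profiles both organs share in this contrast, 5 of the 21 members were called lower in brain and 11 higher in heart. Over all genes 5.25% were called lower and 4.87% higher in brain, and 3.70% higher and 3.11% lower in heart, in this contrast. For Kdr the values were -1.21 in brain and 1.53 in heart, both called, and for Egfl7 -2.33 and 1.04, both called. Eng stood at -1.69 in brain, which was called, and at 0.62 in heart, which was not. Esam and Sox18 were called in heart (1.54 and 1.70) and not in brain (-0.54 and -0.81).

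Genes that mark the barrier of brain vessels were mostly not called. Of 12 members 1 was higher (Ocln) and 1 lower (Cldn5), and 0 were called in the 8-profile fit. The median of 0.12 had no stable sign: it was 0.31 in frozen and -0.33 in FFPE tissue, -0.27 without frozen heart and -0.22 when scaled to the silent receptors. Both Ocln and Cldn5 encode tight junction proteins. Cldn5 stood at 3.03 and 4.00 in brain and at 5.29 and 4.69 in heart (-1.47 ± 0.45), and both calls were lost with any one profile left out, with an adjusted p of 0.73 for Cldn5 without frozen brain. Slc2a1, the glucose transporter of the barrier, stood at 6.07 and 5.69 in brain and at 5.08 and 5.06 in heart (0.81 ± 0.31), which was not called. Genes of heart and other peripheral capillaries were lower in 10 of 12 members, in the 8-profile fit too, with a median of -1.86. The water channel Aqp1 stood at 3.86 and 3.96 in brain and at 7.25 and 6.59 in heart (-3.01 ± 0.31). Gpihbp1, which carries the lipase Lpl across the capillary wall, differed by -2.85 ± 0.45 and lost its call without frozen brain (adjusted p = 0.060) or FFPE heart (0.086). The 1 higher member, Car4, had overlapping profiles and was not called with 8 profiles (adjusted p = 0.23). Between 4 (frozen heart, or FFPE heart) and 6 (FFPE brain) capillary genes were lower with 1 profile left out.

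Of 12 mural and smooth muscle genes 6 were lower (4 in the 8-profile fit), with the pericyte and arterial receptor Notch3 at 5.94 and 5.81 in brain and 7.32 and 7.48 in heart (-1.53 ± 0.25). The muscle actin Acta2 and Cspg4, a pericyte proteoglycan, were not called. Of 12 fibroblast and matrix genes 5 were lower (2 in the 8-profile fit), and 0 or 1 with 1 profile left out; Col3a1, a fibrillar collagen, differed by -1.35 ± 0.27, a call kept only without FFPE heart, with an adjusted p of 0.17 without frozen heart. Vascular ligands were lower in 6 of 11 members (5 in the 8-profile fit, 2 without frozen brain). Adm, a dilating peptide, stood at 3.21 and 4.00 in brain and at 6.05 and 6.12 in heart (-2.48 ± 0.37), and Pdgfb, which recruits pericytes, at 4.92 and 4.92 in brain and at 6.65 and 6.62 in heart (-1.71 ± 0.29). Vegfa, the ligand of Kdr, stood at 6.70 and 6.14 in brain and at 8.96 and 7.15 in heart (-1.63 ± 0.24), a call lost without frozen brain (adjusted p = 0.18) or frozen heart (0.099).

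**Figure D5:**
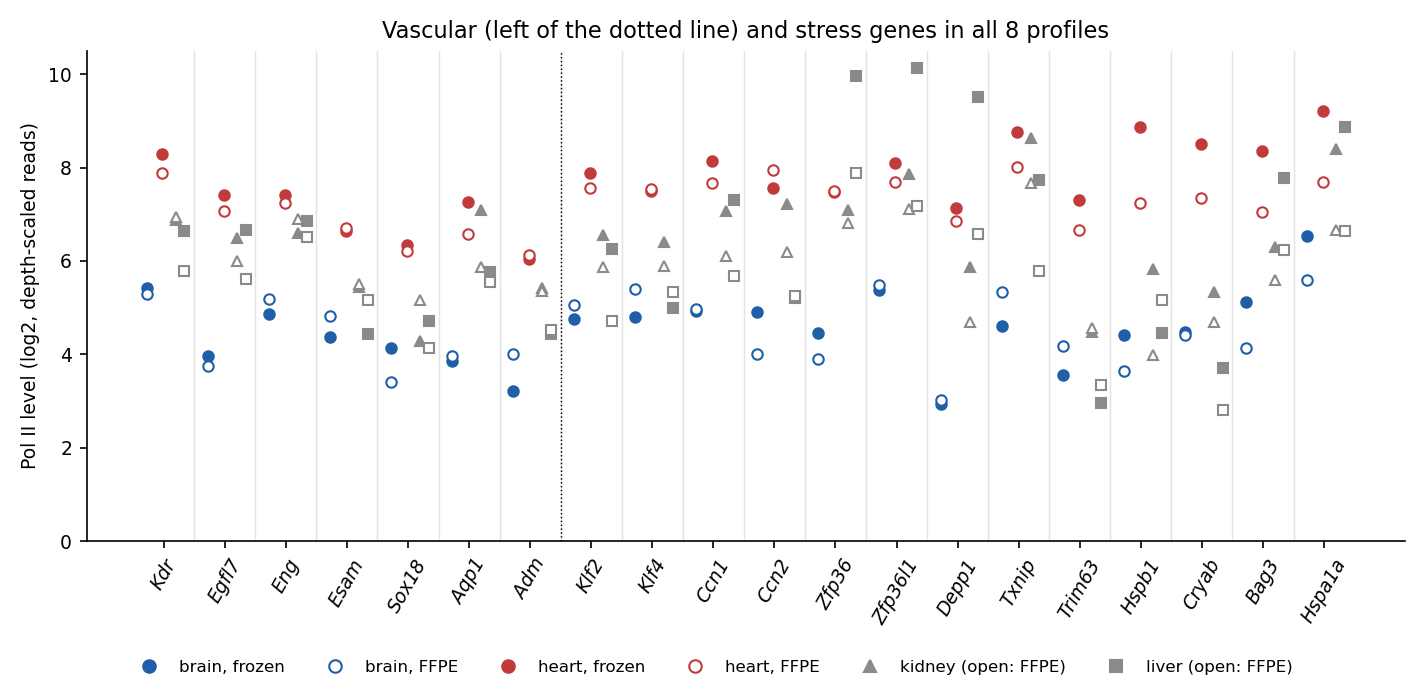
Pol II level (log2, depth-scaled reads) of 7 vascular genes and 13 stress genes in brain (blue), heart (red), kidney (grey triangles) and liver (grey squares), with filled symbols for frozen and open symbols for FFPE tissue. The 20 genes were picked with their values known, so it was fixed by the choice that all lie lower in both brain profiles. Over all genes 27.9% do so. Members of the same lists that were not called, such as Fos, Hsph1 and Vwf, and Arc, which was higher in brain, are not shown. The kidney and liver values of Zfp36 and Zfp36l1 all lie above both brain values. Those of Trim63, Hspb1 and Cryab all lie below both heart values.

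Stress genes of several kinds were lower in brain as well. Of 39 immediate early genes 27 were lower and 1 was higher (23 and 1 in the 8-profile fit), with a median of -1.11. Beside Zfp36, the matricellular genes Ccn2 and Ccn1 stood at 4.90 and 4.00, and 4.92 and 4.97, in brain and at 7.56 and 7.94, and 8.13 and 7.66, in heart (-3.30 ± 0.27 and -2.95 ± 0.26). Klf2, a flow-induced factor of endothelium, was at 4.76 and 5.06 in brain and at 7.88 and 7.57 in heart (-2.82 ± 0.26), and Klf4 differed by -2.43 ± 0.26 (named after its values were seen). The member higher in brain was Arc, a synaptic activity gene, at 7.61 and 7.25 in brain and 5.08 and 5.87 in heart (1.95 ± 0.26), and it lost its call without frozen brain (adjusted p = 0.10) or frozen heart (0.10). Fos and Nr4a1, the inducible factors most used as activity markers, were not called and their profiles overlapped: Fos stood at 6.86 and 5.97 in brain and at 7.23 and 6.69 in heart. Between 8 (FFPE heart) and 16 (frozen heart) members were lower with 1 profile left out.

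Heat shock genes were lower in 16 of 22 members, 10 in the 8-profile fit and 5 (frozen brain) to 10 (FFPE brain) with 1 profile left out, with a median of -0.98. Both brain profiles lay below both heart profiles for 11 members, all of them called, and above them for 1. Over all genes the shares were 27.9% below and 23.8% above. The other 5 called members, Hspa8, Hsp90ab1, Hspd1, Dnajb1 and Dnaja1, named after their values were seen, overlapped, with frozen brain above FFPE heart. All 5 lost their calls without frozen brain (adjusted p from 0.40 to 0.99) and without frozen heart (0.29 to 0.52), and only Dnajb1 of them was called in the 8-profile fit. The difference was larger in frozen tissue, with a median of -1.50, than in FFPE tissue, with a median of -0.63. The small chaperones led the list. Hspb1 stood at 4.42 and 3.65 in brain and at 8.87 and 7.24 in heart (-4.02 ± 0.27), and Cryab, the crystallin that guards the desmin network of muscle, at 4.49 and 4.42 in brain and at 8.49 and 7.36 in heart (-3.47 ± 0.27; it overlaps Hspb2). Bag3, their partner in clearing damaged filaments, differed by -3.07 ± 0.27 and Hspb7 by -3.28 ± 0.28. The inducible Hspa1a stood at 6.54 and 5.59 in brain and at 9.21 and 7.70 in heart (-2.39 ± 0.24; named after its values were seen), and its near copy Hspa1b makes the split of reads between them uncertain. The general chaperones Hsp90aa1 and Hsph1 were not called, at -0.60 ± 0.24 and -0.18 ± 0.25.

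Targets of glucocorticoids and FoxO factors were lower in 15 of 19 members (11 in the 8-profile fit, 7 to 9 with 1 profile left out), with a median of -1.07. Depp1, a FoxO target, stood at 2.93 and 3.02 in brain and at 7.13 and 6.86 in heart (-4.02 ± 0.35; it overlaps Rassf4). Txnip, which restrains glucose uptake, was at 4.62 and 5.33 in brain and at 8.77 and 8.01 in heart (-3.42 ± 0.25; it overlaps Gm15441), and Trim63, a ubiquitin ligase of muscle, at 3.57 and 4.17 in brain and at 7.30 and 6.66 in heart (-3.11 ± 0.31). Per1, Foxo3 and Klf15 were not called. Hypoxia genes were lower in 8 of 15 members (7 in the 8-profile fit, 2 without frozen brain), Adm and Hk2 among them, while Pfkfb3 differed by 0.03 ± 0.27. Of 16 genes of the unfolded protein and integrated stress responses 1 was lower, Ppp1r15a, and it was not called with any one profile left out. Their median of -0.10 was near that of all genes, and Hspa5, the chaperone of the endoplasmic reticulum, stood at 7.55 and 6.92 in brain and at 8.04 and 7.10 in heart.

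Kidney and liver place these genes differently, in values that share the same kidney and liver profiles. Zfp36 was called lower in brain than in kidney and liver (-3.75 ± 0.31) and not called in heart (-0.45 ± 0.31). Depp1 (-3.68 in brain, 0.34 in heart) and Txnip (-2.48 in brain, 0.93 in heart) were likewise called in brain and not in heart. Hspb1, Cryab and Trim63 were called higher in heart (3.19, 3.79 and 3.15) and not called in brain (-0.83, 0.32 and 0.03). Ccn1 and Ccn2 were called on both sides, lower in brain (-1.59 and -1.52) and higher in heart (1.36 and 1.78). Over the lists, 12 of 39 immediate early genes were called lower and 2 higher in brain, and 15 higher in heart. For heat shock 5 of 22 were called lower in brain and 4 higher in heart, and for glucocorticoid and FoxO targets 10 of 19 were lower in brain, and 5 higher and 2 lower in heart.

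The core of the heat shock element, GAANNTTC, which reads the same on both strands, was found in the 300-base promoters of 12 of 18 heat shock genes and in 7.76% of all tested genes. It was in 7.55% of the genes higher and 7.76% of those lower in brain. The CArG box was in 2 of 29 immediate early genes, Zfp36 and Egr2. Of the other motifs, the TATA box was in 7 of the 29, the E-box in 6 and the MEF2 site in 4. The cAMP response element and the GATA site were in 3 each, and the AP-1 site and heat shock core in 2 each. Over all tested genes the cAMP response element was in 2.93%, and the other shares are given above. The 250 bases before the starts of Hspb1 and Hspa1a, with the core in capitals, and of Zfp36, with the CArG box in capitals, are shown because these genes carry the stress differences described above. Their matches lie 117 and 97 bases before the start in Hspb1, 104 bases in Hspa1a and 58 bases in Zfp36, and they are matches of letters only.
Hspb1, chr5:135887669-135887918 (+): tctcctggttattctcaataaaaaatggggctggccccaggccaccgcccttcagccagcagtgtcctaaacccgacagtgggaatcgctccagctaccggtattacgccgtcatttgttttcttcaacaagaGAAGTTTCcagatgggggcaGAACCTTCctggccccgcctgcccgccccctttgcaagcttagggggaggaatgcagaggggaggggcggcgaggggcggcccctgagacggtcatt
Hspa1a, chr17:34972157-34972406 (-): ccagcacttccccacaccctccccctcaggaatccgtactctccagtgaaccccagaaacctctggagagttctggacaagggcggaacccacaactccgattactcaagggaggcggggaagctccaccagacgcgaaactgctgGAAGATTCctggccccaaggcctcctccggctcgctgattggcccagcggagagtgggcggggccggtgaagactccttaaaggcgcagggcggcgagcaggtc
Zfp36, chr7:28379229-28379478 (-): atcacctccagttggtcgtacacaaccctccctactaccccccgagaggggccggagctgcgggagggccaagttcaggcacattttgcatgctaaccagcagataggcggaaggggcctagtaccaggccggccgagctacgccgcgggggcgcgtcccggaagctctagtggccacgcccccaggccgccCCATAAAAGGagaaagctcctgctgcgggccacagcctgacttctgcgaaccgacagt

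Markers of cell types that either organ may hold were read beside these groups. By limma none of the tested members of the erythroid (2), immune (7), skeletal muscle (7), adipocyte (5), choroid plexus and ependyma (5) or hepatocyte (7) lists was called, with 4 profiles or 8. The pan-leukocyte gene Ptprc stood at 5.30 and 5.43 in brain and at 4.83 and 5.16 in heart. Summed reads of the immune list were 166 and 175 per 1000000 in brain and 116 and 136 in heart. They are shares of all reads in genes, including mitochondrial reads, which took a larger part in heart. On the depth-scaled values the median difference of the immune list was -0.02. Summed reads of the endothelial list are given above. The part of endothelial and other vascular cells in the stress gene differences was not tested. Of 12 housekeeping genes 2 were lower in brain, Actb (-1.24 ± 0.24) and B2m (-1.96 ± 0.39), a member of the class I antigen complex. Neither was called without frozen brain (adjusted p = 0.51 and 0.076) or without FFPE heart (0.27 and 0.15), and Actb was not called without frozen heart (0.11). Polr2a, the gene of the Pol II subunit that the antibody recognizes, stood at 6.73 and 6.58 in brain and at 6.47 and 6.75 in heart (0.05 ± 0.25).

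Called genes with a symbol that were not mitochondrial and whose brain and heart profiles did not overlap were ranked by their difference. The 10 with the largest differences in favour of brain included, besides Mir124a-1hg, Nptx1 and Gabra6, the postsynaptic scaffold Cnksr2 (3.84 ± 0.40) and Nap1l2, a neuronal histone chaperone (3.77 ± 0.65). Ackr1 and Lrrc26 were also among them and overlap the neuronal genes Cadm3 and Grin1, so that their reads cannot be separated. Sptssb, a subunit of the enzyme that starts sphingolipid synthesis, had 63 and 48 reads in brain against 4 and 0 in heart, D130052B06Rik 36 and 37 against 0 and 2, and Tmem210 100 and 81 against 4 and 3. Calls were lost without frozen brain for Nap1l2, Ackr1, D130052B06Rik and Tmem210, without FFPE brain for Nap1l2 and Sptssb, without frozen heart for D130052B06Rik and without FFPE heart for Nap1l2 (adjusted p from 0.060 to 0.26). The 10 with the largest differences in favour of heart were Myh6, Myh7, Actc1, Nppb and Mir1a-1hg, the short genes Mir208a, Mir208b, Mir133a-1 and Mir1a-1, and Cmtm5, which overlaps Myh6. Mir133a-1 had 1 and 0 reads in brain against 31 and 10 in heart, and Mir1a-1 had 0 and 1 against 22 and 8. The call of Mir133a-1 was lost with any one profile left out (adjusted p from 0.18 to 0.26), as was that of Mir1a-1 (0.18 to 0.41). Calls of Mir208b (adjusted p = 0.092) and Mir1a-1 (0.066) were not made in the 8-profile fit.

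Genes called higher in brain were longer. Their median annotated span was 40712 bases, against 16579 bases for genes lower in brain and 20613 bases for all tested genes with a known position. Spans above 100000 bases were found in 29.6% of the higher, 11.3% of the lower and 12.4% of all genes. The part of gene span in the counts of called genes was not tested.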

How the data were processed

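The deposited table holds log2 values of 27179 genes in 8 Pol II profiles (4 organs, frozen and FFPE). Per the submitters' processing notes, Bowtie2, featureCounts and limma were used with the mm10 build, in versions not given here. From the values themselves, the authors' log2 scale adds 0.5 reads and scales by depth, and whole reads were recovered from every value. No scaling by gene length and no subtraction of input enters these values. The depths given in the report are sums of these reads.

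Genes that reached a log2 value of 3 in 2 or more of the 4 profiles were tested with limma 3.58.1 in R 4.3.3 (organ with preservation as a block, trended prior, Benjamini-Hochberg adjustment over all 20438 genes). The fit had 1 residual degree of freedom and an infinite prior, so each gene's spread is that of the trend. Fits with a profile left out used the other 7 profiles, so a lone sample is assumed to vary like the rest. Contrasts with kidney and liver used the 8-profile fit, which has 3 residual degrees of freedom.

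The members and lists were chosen with earlier results of these data known. Lists can share members, such as Atp2a2, Cacna1c and Cd36, so their counts are not separate. Named genes come from a rule: the 4 markers, of each list up to 4 called members with the largest differences in each direction and up to 3 not called with the highest level, and the 10 largest differences each way. These 10 were taken from called genes with a symbol that were not mitochondrial and whose brain and heart profiles did not overlap. Not every gene it selects is described. Camk2d, Mir9-3hg, Mir22hg, Zfp36l1, the genes named only for a promoter motif and those so marked in the text lie outside it and were named after their values were seen. Positions and sequences are from RefSeq, GRCm38.p6. Some genes of these lists are not reported here.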

Additional observations from a re-analysis of the deposited data

Results flagged for a closer look

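For 6 of the genes looked at, brain minus heart had opposite signs in frozen and FFPE tissue, each by at least 1 on the log2 scale. The difference between frozen and FFPE tissue was not tested, and none of these genes was called. For Nppa the difference was 1.073 in frozen and -2.558 in FFPE tissue, from 41 and 30 reads in brain and 15 and 70 in heart. The contrast of Nppa within heart was shared by Myl4, Myl7 and Sln, as described above. The other 5 flagged genes were selected for opposite signs in frozen and FFPE tissue. They had at most 27 reads in any brain or heart profile. Ddi1, which overlaps Pdgfd, differed by 2.097 in frozen and -3.006 in FFPE tissue. Pwwp4-ps differed by 2.459 and -2.282, D030068K23Rik by 2.21 and -1.977, Gm13306 by 1.974 and -2.041, and Calml3 by 1.889 and -2.086, in frozen and FFPE tissue in that order.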

How the results depend on the processing

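The counts of genes higher and lower in brain (1335 and 1888) became 787 and 1128 in the 8-profile fit, 812 and 1146 with no preservation block, 675 and 3458 when scaled to silent receptors and 243 and 290 with no trend in the prior. With a profile left out they ranged from 132 to 373 higher and from 313 to 459 lower. Other filters, 2 added reads, quantile normalization, voom weights and mitochondrial genes left out kept both counts within 1.5 times. The cause of these shifts was not tested. Snap25, Myh6, Kdr and Zfp36 kept direction and call under all 14 alternatives. No called gene named here changed sign under them. Of 130 called genes other than these 4, calls were lost by 10 in the 8-profile fit, 14 with no block, 33 with no trend and 26 to 46 with a profile left out. Genes not called that changed sign are given with their values. Scaled to silent receptors they were Rab3a -0.045, Vamp2 -0.26, Pou3f2 -0.23, Slc1a3 -0.32, Csf1r -0.26, Nebl -0.062, Pfkfb3 -0.31, Polr2a -0.30, Pwwp4-ps -0.25 and D030068K23Rik -0.23. With quantile normalization they were Mef2c 0.018, Fgfr3 0.0063, Hsph1 0.034, Pwwp4-ps -0.39 and D030068K23Rik -0.40. With mitochondrial genes left out they were Mef2c 0.012, Fgfr3 0.036, Gm13306 0.077 and Calml3 0.012. With voom weights they were Vamp2 -0.011 and Gm13306 0.57, and with 2 added reads Pwwp4-ps -0.048. With a profile left out the ranges were Acadvl -0.42 to 0.16, Calml3 -1.63 to 1.43, Csf1r -0.0022 to 0.17, D030068K23Rik -1.50 to 1.74, Ddi1 -2.51 to 1.60, Eno1 -0.46 to 0.031, Fgfr3 -0.77 to 0.62, Gm13306 -1.50 to 1.43, Hand1 -0.50 to 0.028, Hsph1 -0.60 to 0.23, Klf15 -1.26 to 0.39, Mef2c -0.60 to 0.40, Nebl -0.31 to 0.88, Nppa -2.02 to 0.54, Nr4a1 -0.75 to 0.37, Pfkfb3 -0.13 to 0.20, Polr2a -0.18 to 0.27, Pou3f2 -0.014 to 0.24, Pwwp4-ps -1.78 to 1.96, Slc1a3 -0.083 to 0.14 and Vamp2 -0.23 to 0.40. No paired analysis was possible because the columns of the table carry no replicate number. Depth limits genes near the filter, which rest on 6 to 16 reads.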

Other observations

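Several groups outside the comparisons above were drawn up after the values had been seen, so their counts are descriptions. Among 11 partners of the cardiac Z-disc and costamere 10 were lower in brain (7 to 9 with 1 profile left out). Lmod2, which lengthens thin filaments, stood at 3.57 and 3.34 in brain and at 8.15 and 6.87 in heart (-4.06 ± 0.31), and Popdc2, a membrane protein of cardiac pacing, differed by -3.82 ± 0.37. Of 12 RNA-binding and splicing genes 7 were higher and 2 lower. Elavl3, a neuronal RNA-binding protein, stood at 7.75 and 7.48 in brain and at 5.11 and 4.46 in heart (2.83 ± 0.27), and Rbm20, the splicing factor of titin, at 5.51 and 5.48 in brain and at 7.89 and 7.60 in heart (-2.25 ± 0.25). With 1 profile left out 1 (frozen brain) to 2 of the splicing genes were higher and 1 to 2 lower.

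Of 6 nuclear long noncoding RNAs 3 were higher and 1 lower. Neat1, the scaffold of paraspeckles, stood at 6.18 and 5.95 in brain and at 10.21 and 8.89 in heart (-3.49 ± 0.24). Meg3, an imprinted transcript, was at 8.10 and 8.16 in brain and at 6.07 and 6.17 in heart, was called higher and overlaps Rtl1. Of 12 BMP and TGF-beta response genes 8 were lower (2 without frozen heart to 6 without FFPE heart), with Id1 at 4.23 and 3.71 in brain and 6.97 and 6.84 in heart (-2.94 ± 0.31). Of 16 class I antigen and interferon-induced genes 10 were lower, against 1 without frozen brain. H2-K1, a class I gene, stood at 4.42 and 4.05 in brain and at 6.12 and 6.12 in heart (-1.89 ± 0.34), and lost its call without FFPE heart (adjusted p = 0.065).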
